A study of Saccharomyces cerevisiae with 16 samples.

Results

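H3K4me3 peaks that lay away from annotated gene starts were described in 8 CUT&RUN libraries of budding yeast, *Saccharomyces cerevisiae*. CUT&RUN cuts and releases the DNA beside an antibody-bound chromatin mark, so a peak is a stretch where released fragments pile up over the local background. A peak was a member when its summit, the base of highest pile-up, lay outside every window from 200 bp upstream to 800 bp downstream of a protein-coding gene start, strand aware. Summits within 30 kb of a chromosome end or within 500 bp of a tRNA, snoRNA, rRNA or LTR feature were left out. The rule found 3909 members among 30113 peaks on chromosomes I to XVI, 30753 peaks on all contigs. The filters took 2336 nuclear peaks, in and outside start windows, and 23868 of the peaks they left had their summit in a gene-start window. Gene starts here are start codons, since the RefSeq annotation of sacCer3 gives coding spans. A member was called gene end when its summit lay within 200 bp of the end of a protein-coding gene, gene body when it lay inside a gene and was not gene end, and intergenic otherwise.

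The strains were BY4741 derivatives that carried either the synthetic human locus synHPRT1 or its reversed sequence synHPRT1R. Each locus was held as a yeast artificial chromosome (YAC) in cells grown in SC-Leu, or was integrated on chromosome XI in cells grown in YPD, so context and medium cannot be told apart. The 4 combinations had 2 libraries each, from separate colonies of 1 strain, so p-values measure the spread between these libraries, which may be technical. Libraries of rabbit IgG, the negative control antibody, were not analysed here. Lists held 3377 to 3963 nuclear peaks, and the pile-up that the caller's scores imply for its background was 76.2 to 98.9 fragments per base. The library of synHPRT1R YAC replicate 1 stood apart, with the fewest peaks and the lowest median fold enrichment. Where 8 values are listed in pairs, the forward locus comes before the reversed one, YAC comes before integrated within each locus, and replicate 1 comes before replicate 2.

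H3K4me3 is laid down by the COMPASS complex, whose catalytic subunit is Set1, and COMPASS travels with RNA polymerase II early in transcription. The mark therefore sits on the first nucleosomes of transcribed units, coding or not. Yeast also transcribes many non-coding and antisense RNAs, some of which start inside genes, at gene ends or far ahead of a coding start and regulate the gene they cross. Start codons and transcription starts differ by the length of the leader, so a summit far ahead of a start codon can belong to a long leader as well as to another unit.

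Windows at 4 summits are shown because the comparisons below turn on them. They were read from sacCer3 (RefSeq), top strand, 5′ to 3′, each from 150 bases before the summit. Capitals mark the letters of 6 motifs searched on both strands: TTACCCG for Reb1, CACGTG for Cbf1, TGACTCA for Gcn4, ACGCGT for Mbp1, TATAAA for TATA and a run of 10 A. *GAL10* at chrII:276628-276927 lay inside a gene, at the start of an annotated antisense RNA, and held a Reb1 and a TATA match. *TRM5* at chrVIII:236152-236371 was a gene-end summit apart from every start window in all libraries, shown up to the last coding bases. *RIP1* at chrV:106770-107069 was the member region that passed the test between contexts. *CYC1* at chrX:525935-526234 was called in all 4 YAC libraries and no integrated one. A match is a description of these letters and not a bound site.
GAL10: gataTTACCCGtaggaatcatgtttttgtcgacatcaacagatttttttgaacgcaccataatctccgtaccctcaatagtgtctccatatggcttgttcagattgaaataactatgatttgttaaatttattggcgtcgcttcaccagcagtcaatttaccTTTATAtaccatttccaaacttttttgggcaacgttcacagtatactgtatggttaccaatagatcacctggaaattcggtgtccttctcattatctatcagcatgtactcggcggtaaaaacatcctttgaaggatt
TRM5: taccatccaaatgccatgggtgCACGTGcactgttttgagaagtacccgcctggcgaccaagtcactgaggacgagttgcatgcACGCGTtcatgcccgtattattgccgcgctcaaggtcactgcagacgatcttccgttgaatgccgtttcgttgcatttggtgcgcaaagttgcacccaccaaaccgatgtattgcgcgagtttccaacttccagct
RIP1: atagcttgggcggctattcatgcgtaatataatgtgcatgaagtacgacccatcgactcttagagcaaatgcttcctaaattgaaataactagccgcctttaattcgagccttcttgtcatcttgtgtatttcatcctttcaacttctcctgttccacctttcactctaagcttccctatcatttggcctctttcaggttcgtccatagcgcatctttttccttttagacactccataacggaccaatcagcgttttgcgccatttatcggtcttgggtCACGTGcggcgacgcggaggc
CYC1: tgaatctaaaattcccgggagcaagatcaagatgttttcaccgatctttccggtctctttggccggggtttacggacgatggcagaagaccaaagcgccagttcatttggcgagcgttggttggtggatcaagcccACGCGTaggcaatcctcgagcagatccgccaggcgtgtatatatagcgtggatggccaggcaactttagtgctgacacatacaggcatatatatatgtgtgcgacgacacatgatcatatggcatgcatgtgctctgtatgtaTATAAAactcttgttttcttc

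Most members were intergenic, and gene bodies held the fewest. Of the 3909 members, 2948 (75.4%) were intergenic, 641 (16.4%) were at gene ends and 320 (8.19%) were in gene bodies. The DNA that the rule left over had the opposite make-up, with 65.3% gene body, 20.9% gene end and 13.8% intergenic bases. Per library, members numbered 504 and 452, 492 and 509, 467 and 477, and 512 and 496. Gene-body members numbered 54 and 37, 35 and 33, 29 and 36, and 55 and 41. No group stood clear of the others in either count.

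Summits fell at 11.3 ± 2.71 per Mb of gene body, 70.8 ± 10.6 per Mb of gene end and 495 ± 26.5 per Mb of intergenic DNA (SD, n = 8 libraries). Start windows held 582 ± 34.7 summits per Mb. The density in gene bodies was 0.0224 times that in intergenic DNA, with a range of 0.0167 to 0.0320 over libraries, and all 8 libraries showed the lower value (two-sided exact permutation test by sign flips, p = 0.00781). Gene ends held 6.34 times the density of gene bodies, with a range of 5.26 to 7.75, and all 8 libraries showed the higher value (same exact test, p = 0.00781). This p is the smallest that 8 libraries allow. The rule removes 800 bp inside each gene but only 200 bp ahead of it, so left-over bases differ by class in their distance from starts. Both tests use the summit position that also chose the members, so they cannot separate class from that distance.

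**Figure D1:**
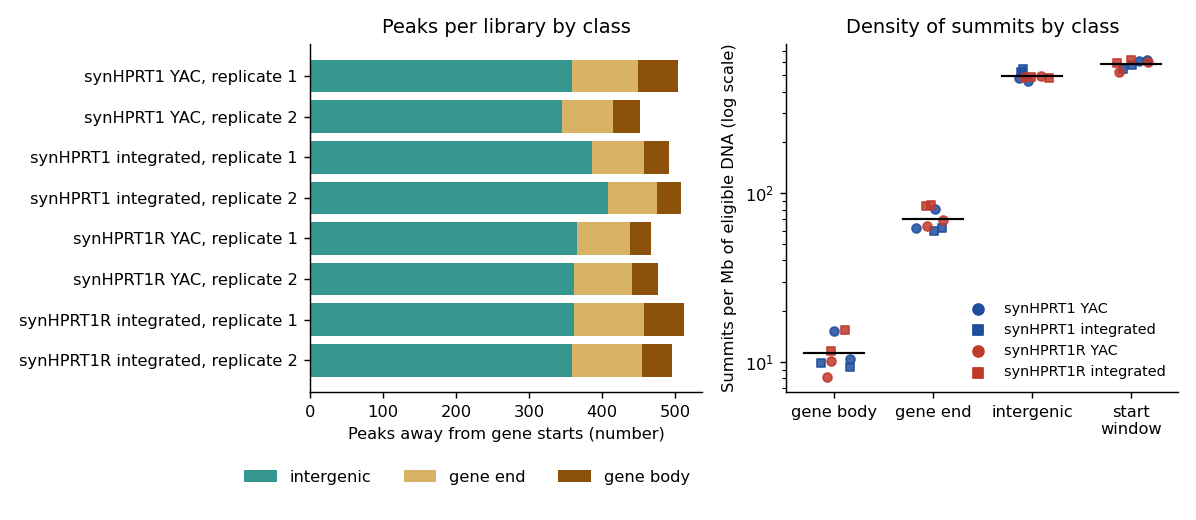
Left, number of peaks away from gene starts in each of the 8 libraries, stacked by class. Right, summits per Mb of eligible DNA on a log axis, 1 point per library (colour, locus; shape, context) with the mean as a line; the gene-body points (8.21 to 15.6) lie below all gene-end points (60.1 to 84.8), which lie below all intergenic points (464 to 548).

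Peaks away from starts were slightly lower than gene-start peaks. Their median fold enrichment, the caller's ratio of pile-up to local background, was 1.90 and 1.87, 2.15 and 2.16, 1.76 and 2.04, and 1.98 and 2.02. Gene-start peaks had 2.07 and 2.09, 2.42 and 2.31, 1.89 and 2.20, and 2.21 and 2.26. The ratio was 0.910 on average and below 1 in each of the 8 (exact permutation by sign flips, p = 0.00781). Median widths ranged from 476 to 758 bp away from starts and from 560 to 702 bp at starts, a ratio of 0.912 that was below 1 in 6 of 8 libraries and missed the threshold (same exact test, p = 0.0547). It passed without synHPRT1 integrated replicate 2 (log2 −0.17, exact p = 0.0313) or synHPRT1R YAC replicate 1 (log2 −0.16, exact p = 0.0469). The direction for width turned when only peaks with −log10 q of at least 10 were kept: the mean log2 ratio was then 0.20 (exact p = 0.00781) against −0.13 for all peaks.

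Library medians of fold enrichment were 1.68 to 1.94 in gene bodies, 1.60 to 1.99 at gene ends and 1.79 to 2.23 between genes. These ranges overlapped. Median widths were 386 to 657 bp, 348 to 534 bp and 522 to 830 bp, and the classes were not tested against each other in either measure. Many members reached into a start window with their flank: only 39.4% ± 6.98 of the members of a library (SD, n = 8) had no base in any start window. That share was 61.0% ± 8.58 in gene bodies, 45.8% ± 10.4 at gene ends and 35.5% ± 5.67 between genes. These members without a base in a start window are called detached below.

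Merged over libraries where they touched, the members formed 940 regions, of which 162 had such a peak in all 8 libraries and 247 in 1 library alone. Regions of gene-start peaks, merged in the same way, numbered 3219, of which 2029 were found in all 8. By class, 16 of 91 gene-body regions, 15 of 184 gene-end regions and 131 of 665 intergenic regions were found in all 8. Many of the singletons overlapped a peak of some kind elsewhere: of the 247 regions seen in 1 library, 122 had some peak in all 8. A summit that moves across the edge of the window would change the kind of peak without the loss of a peak. Movement of summits was not measured, and a separate neighbouring peak would count in the same way. Between replicates of a group, 86.8% ± 3.61 of members had at least 50% of their length under any peak of the other replicate (SD, n = 4 groups), and 66.7% ± 7.06 under another member. Gene-start peaks had 92.3% ± 2.92 and 88.6% ± 3.47.

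The edge of the rule held many members on its upstream side. Summits that missed the window by up to 50 bp ahead of the nearest start numbered 718, with a median fold enrichment of 2.34 and a median width of 984 bp. Those up to 50 bp inside this edge numbered 616, with 2.23 and 868.5 bp. At the downstream edge 32 summits lay up to 50 bp outside, with a median fold of 1.81, and 19 lay up to 50 bp inside, with 1.75.

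Intergenic members were found ahead of genes and almost never between converging ends. Of the 2948, 1635 (55.5%) lay between divergent genes, 1290 (43.8%) between tandem genes and 23 (0.780%) between convergent genes. Per Mb of left-over DNA and per library, that was 599 between divergent genes (range 566 to 660), 452 between tandem genes (range 421 to 499) and 61.4 between convergent genes (range 42.7 to 107). The ranges of the 3 arrangements did not overlap. These counts use the summit position that also chose the members, and left-over convergent DNA has no gene start at its edges. Arrangement and distance from starts therefore cannot be told apart. The nearest start lay at most 300 bp further on for 1193 intergenic summits (40.5%), 300 to 500 bp for 995, 500 to 1000 bp for 607 and more than 1000 bp for 104. Members between divergent genes had a median width of 899 bp and 37.2% covered no start codon. Those between tandem genes had a median width of 470.0 bp and 66.3% covered none. The 23 convergent members had a median width of 248 bp and a median fold of 1.56.

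**Figure D2:**
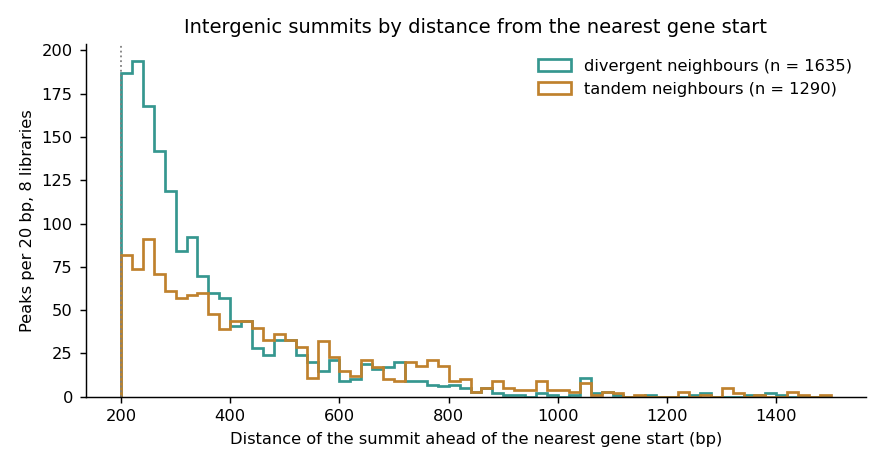
Number of intergenic peaks per 20 bp, all 8 libraries together, against the distance of the summit ahead of the nearest gene start in bp, for divergent (n = 1635) and tandem (n = 1290) neighbours; distances over 1500 bp are not drawn. Both distributions fall from the edge of the rule at 200 bp (dotted), and the divergent one more steeply.

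Gene-body members lay near the 3′ end of their host genes more often than the left-over bases did. The 320 members lay in 108 genes, at a median of 1283 bp from the start codon and 73.7% of the host's length. The rule removes the first 800 bp of each gene, which by itself raises that percentage, and no left-over value was set beside it. Within 1000 bp of the host's start codon, just past the edge of the rule, lay 95 members (29.7%). Distance from the start and distance from the end were not tested apart. Of the 320, 169 (52.8%) lay 200 to 500 bp before the end of the host, where 23.9% of the left-over gene-body bases were. More than 1000 bp before the end lay 80 members (25.0%), against 47.5% of the bases. In 96 members (30.0%) the nearest start was that of another gene up to 1000 bp ahead. Counting a peak for each gene it overlaps, genes of 3000 bp or more had a gene-body member in 30 of 491 (6.11%), at 7.88 peaks per Mb and library. Shorter genes had one in 92 of 2875 (3.20%), at 15.7 peaks per Mb and library.

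**Figure D3:**
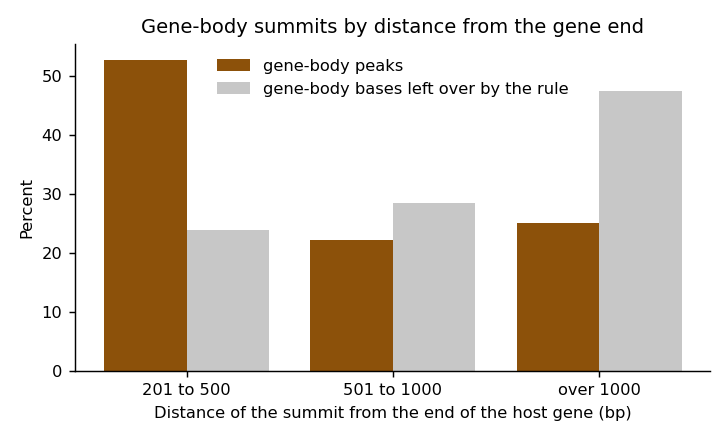
Share of the 320 gene-body peaks (brown) and of the gene-body bases left over by the rule (grey), in percent, by distance from the end of the host gene in bp. Between 200 and 500 bp from the end lie 52.8% of the peaks and 23.9% of the bases.

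Ty retrotransposons held 45 of the gene-body members (14.1%), with 13 of 29 in synHPRT1R YAC replicate 1 and 3 to 6 per library in the others. Regions are classed by their strongest summit, and of the 16 gene-body regions found in all 8 libraries, 3 lay in Ty genes. The 6 with the highest median −log10 q were in *SSK22*, YGR109W-B, YIL082W-A, *PTI1*, *ENA1* and *AMF1*. *SSK22*, a kinase of the osmotic stress pathway, had the strongest of them at chrIII:241763-243206, 239 bp before its end and 475 bp ahead of the start of *RSA4*. Its fold enrichment was 2.91 and 2.78, 3.14 and 2.96, 2.28 and 2.81, and 2.79 and 3.19. Every library had a fold above 2, and the lowest was again synHPRT1R YAC replicate 1. YGR109W-B and YIL082W-A are the open reading frames of Ty3 elements, similar copies, and whether reads were shared between them was not tested. Their regions lay 1938 and 1973 bp from the start and had median folds of 2.49 and 2.41. *ENA1*, a sodium pump, sits in a tandem array of similar copies, so its region at chrIV:535254-535867 (median fold 1.97) carries the same doubt. *PTI1*, a factor of mRNA 3′-end processing, had 2.24 and 2.06, 1.80 and 2.02, 1.62 and 2.07, and 2.28 and 2.12. *AMF1*, an ammonium transporter, ranged most widely, from 1.51 in synHPRT1 integrated replicate 2 to 2.80 in synHPRT1R YAC replicate 2.

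In 10 of the 16 regions the lowest fold came from synHPRT1R YAC replicate 1. Regions detached from every start window in all 8 libraries, chosen after their values were seen, were 7 in gene bodies: *GAL10*, *PHO5*, *ENA1*, *AMS1*, *NDT80* and both Ty3 genes. *PHO5*, a secreted acid phosphatase, had its summit 1147 bp into a gene of 1404 bp, with folds of 2.07 and 2.16, 2.08 and 2.09, 1.60 and 1.95, and 1.75 and 1.91. *NDT80*, the transcription factor of mid-meiosis, had its summit 1157 bp into 1884 bp, with 1.84 and 1.93, 2.16 and 1.94, 1.51 and 1.95, and 2.01 and 1.79. In both genes YAC and integrated libraries overlapped. *AMS1*, the vacuolar mannosidase, was the weakest of the 16, with a median fold of 1.56. *MNN4*, which acts in mannosyl phosphate transfer, had a median fold of 2.04, and *IDP3*, the peroxisomal isocitrate dehydrogenase, 1.85.

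**Figure D4:**
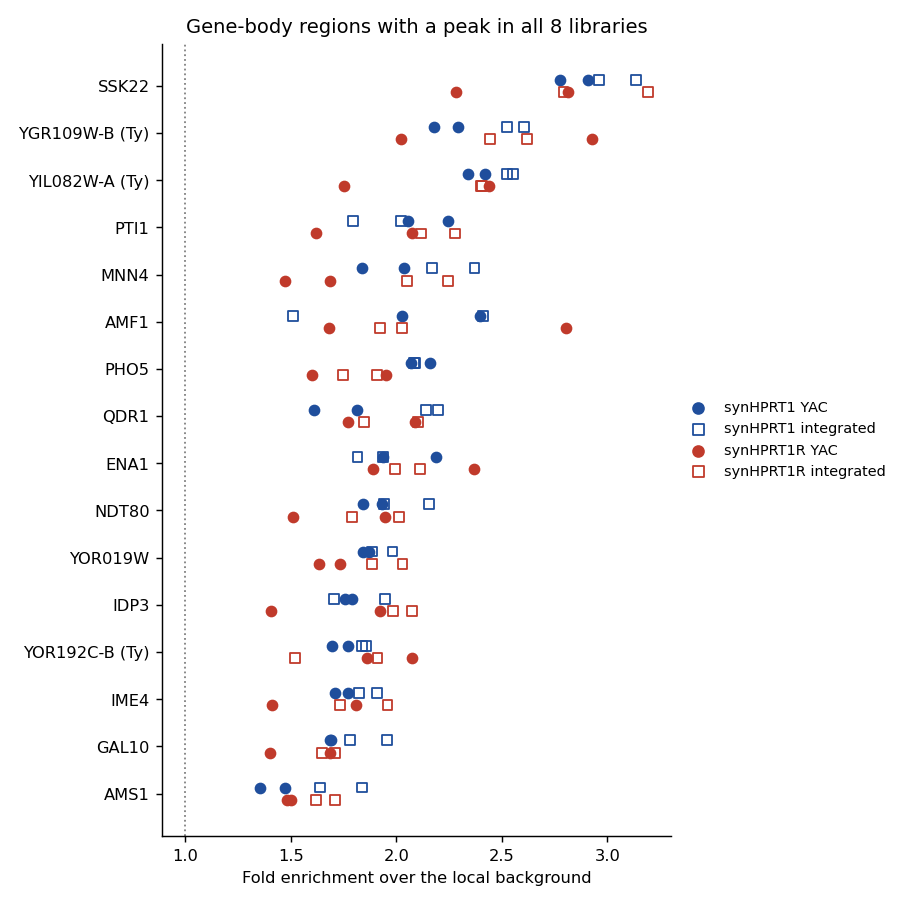
Fold enrichment over the local background in each of the 8 libraries (colour, locus; filled circles, YAC; open squares, integrated) for the 16 gene-body regions with a peak in all 8, ordered by median fold. All values lie above 1 (dotted); *SSK22* has the highest median (2.86) and *AMS1* the lowest (1.56), and YAC and integrated libraries are interleaved in most rows.

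Gene-end members were in large part upstream of the next gene. Of the 641, 392 (61.2%) had their summit at or before the end, inside a gene, and 249 (38.8%) past it. In 379 (59.1%) the nearest start lay 200 to 500 bp further on. The 6 regions of highest median −log10 q found in all 8 libraries were at *RSC3*, *RAX1*, *TRM5*, *BUD9*, *GIS1* and *TAX4*. The strongest lay at chrIV:1070940-1073499, 322 bp ahead of *RSC3*, a subunit of the RSC chromatin remodeller, and 172 bp past the end of *CPR5*. Its folds were 3.42 and 3.22, 4.48 and 4.04, 2.83 and 3.82, and 3.64 and 3.90. The *BUD9* region (median fold 2.41) and the *GIS1* region (2.12) lay 783 and 855 bp ahead of these genes, a bud-site protein and a transcription factor of nutrient limitation.

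In *TRM5*, a tRNA methyltransferase, the summit lay 78 bp before the gene end and 702 bp ahead of *PCL5*, a cyclin. It was detached in all 8 libraries, and its printed window holds a Cbf1 and an Mbp1 match. Folds were 2.29 and 2.31, 2.30 and 2.19, 1.61 and 2.27, and 2.64 and 2.76. The other gene-end regions detached in all 8 libraries were at *DTR1*, *GIS1*, *APC4* and *ECM32*. They had median folds of 1.95, 2.12, 1.83 and 1.53.

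Of the 6 intergenic regions of highest median −log10 q found in all 8 libraries, 5 are described, which lay ahead of *GCG1*, *SUR7*, *BIG1*, *RPL30* and *RPS6A*, at 252 to 512 bp from these starts. The *GCG1* region, ahead of a glutathione-degrading enzyme and divergent from the chromatin remodeller gene *CHD1*, had folds of 3.68 and 3.65, 4.59 and 4.20, 2.90 and 4.34, and 3.37 and 4.34. Its lowest value came from synHPRT1R YAC replicate 1. None of these 5 was detached in any library, and 4 of the 5 lay between divergent genes. *RPL30* and *RPS6A* encode ribosomal proteins, and their regions had median folds of 3.62 and 3.31.

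Intergenic regions detached in all 8 libraries had a median fold of 1.96, beside 2.28 for all 131 intergenic regions found in all 8. The 131 include the detached ones, and the difference was not tested. In all 8 libraries 28 were detached, 10 between divergent and 18 between tandem genes, at a median of 677.5 bp from the nearest start. Their median folds ranged from 1.47 to 2.83. The highest, at chrXIV:661663-662538, lay 702 bp ahead of *ACC1*, which encodes acetyl-CoA carboxylase. Others of the 28 lay ahead of *TYE7* (682 bp), *CLN2* (375 bp) and *GLN1* (775 bp), a glycolytic regulator, a G1 cyclin and glutamine synthetase.

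The member farthest from a protein-coding start among the 28, at chrV:377173-378134, was ahead of a gene the rule does not count. Its summit lay 3430 bp from *GLE2*. *FLO8*, a regulator of flocculation, is a pseudogene in this reference strain, and the summits lay 340 to 394 bp ahead of its start. Folds were 2.11 and 2.33, 2.69 and 2.27, 1.82 and 2.51, and 3.01 and 2.62. The pseudogene *CCW22* had members from 459 bp ahead to 282 bp past its start in 7 of 8 libraries, with folds of 1.54 to 2.29. Of 18 annotated pseudogenes, 6 had an eligible start, and the other 1 with members, YOL153C, had them in 2 libraries.

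Some annotated non-coding RNAs had members at their start. Of 28 such genes, 21 had a start that was eligible and outside every protein-coding start window. Members lay from 200 bp ahead to 800 bp past the start of 6 of these 21, in 7 or 8 libraries for 5 of them. For 4 others gene-start peaks alone were found there, and for 11 no peak of either kind. No share over all genes in the same window was set beside these counts. Transcription of these RNAs was not measured in these files.

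*GAL10*, an enzyme of galactose use, is crossed by the annotated antisense RNA YNCB0008W. The summits lay at a median of 27.5 bp ahead of the RNA's start, 1574 bp into *GAL10* for the best summit. The region at chrII:276717-277226 was found in all 8 libraries with folds of 1.69 and 1.69, 1.96 and 1.78, 1.40 and 1.68, and 1.71 and 1.65. These correspond to 133 to 157 fragments at the summit. The Reb1 match of the printed window lay 146 bases before the summit. In *IME4*, the mRNA methyltransferase of meiosis, the antisense RNA *RME2* is known to block the sense transcript. Summits lay at a median of 395 bp past the *RME2* start, with folds of 1.77 and 1.71, 1.91 and 1.82, 1.41 and 1.81, and 1.73 and 1.96. Both regions were low against the median of all members in each library. Their median folds of 1.69 and 1.79 lay within the range of gene-body library medians, 1.68 to 1.94. Libraries of the 2 contexts overlapped.

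Ahead of *IME1*, the master regulator of meiosis, the non-coding RNA *IRT1* crosses the promoter. Members lay 1059 to 1268 bp ahead of *IME1* in 7 of 8 libraries, with folds of 1.48 to 1.87. None was called in synHPRT1R YAC replicate 1. For the RNA *SUT468* members lay a median of 57 bp past its start in 7 libraries, with folds of 1.37 to 1.97. For *RUF20* they lay 71 bp ahead of its start in 7 libraries (1.89 to 3.19), in a gap where the nearest protein-coding start, *VTC2*, was 236 bp away. *RUF23* had members in 3 libraries.

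The list of 14 genes with a known regulatory or antisense transcript had members in 7, and in 7 or 8 libraries for 4: *GAL10*, *IME4*, *IME1* and *ADH3*. Of all 4927 protein-coding genes with left-over bases in the gene or its upstream gap, 1293 (26.2%) had a member there and 362 (7.35%) had one in 7 or 8 libraries. *ADH3*, the mitochondrial alcohol dehydrogenase, had members 259 to 294 bp ahead of its start with folds of 1.96 to 3.01, and 1 library had a further one 1026 bp ahead. *URA2*, of pyrimidine synthesis, had members 975 to 1006 bp ahead in 4 libraries, 3 of them integrated. *ADH1*, the main fermentative alcohol dehydrogenase, had them in 2 libraries.

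*HMS2*, a transcription factor with a known antisense RNA, had members 805 to 1051 bp into the gene in all 4 YAC libraries and in no integrated library. Folds were 1.77 and 1.69 for synHPRT1 and 1.64 and 1.78 for synHPRT1R. The merged region, which reaches ahead of *BAT2*, also held a member in synHPRT1 integrated replicate 2 (fold 1.93). It was therefore not counted among the regions of 1 context alone.

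No member was found at *SER3*, *PHO84*, *FLO11*, *IMD2*, *KCS1*, *CDC28* or *HO*. *PHO84* and *IMD2* had no base left over by the rule, so no member was possible there. The list of 5 genes with a known internal start had no member in *STE11*, *PCA1*, *SPB4* or *AVO1*, and *FLO8* is no protein-coding gene in the annotation. *PCA1* likewise had no eligible base.

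The first comparison of the design asked whether the share of peaks away from starts depended on how the locus was held. The share was 13.7% and 12.7%, 14.4% and 15.5%, 14.9% and 13.5%, and 14.0% and 14.1% of eligible peaks. YAC libraries had 13.7% ± 0.894 and integrated libraries 14.5% ± 0.688 (SD, n = 4 each), and the values overlapped. The difference of −0.792 percentage points did not pass an exact two-sided permutation test (p = 0.229, smallest possible 0.0286). Without synHPRT1R YAC replicate 1 the difference was −1.18 points (exact p = 0.0286). The reversed and forward loci had 14.1% ± 0.577 and 14.1% ± 1.17, a difference of 0.0297 points (same exact test, p = 1.0). The effect of the locus was 0.943 points in YAC and −0.884 points in integrated strains, a difference of 1.83 that did not pass an exact test with locus labels exchanged within contexts (p = 0.111, smallest possible 0.0556).

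At single member regions, fold enrichment was rarely called different between contexts once each library was centred on its median. Regions without a peak of their kind in every library were not in this fit. In a limma fit over 2191 regions with a peak of their own kind in all 8 libraries, 162 of them away from starts, 1 member region was higher in YAC libraries and none was lower at an adjusted p of 0.05. The background over all regions was 0.0456% called higher and 0.0456% called lower. At an unadjusted p under 0.05 there were 27 members (16.7%), beside 14.7% of all regions. The median log2 difference was −0.00301 for members and −0.000970 for all regions. Without centring, which shifts all regions by a median of −0.17 on the log2 scale, 1 member was higher and 19 were lower in YAC, where 10.2% of all regions were called lower. Between loci no member was called in either direction, with a background of 0%. An unadjusted p under 0.05 was found for 7 members (4.32%), beside 2.33% of all regions.

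The member that passed lay ahead of *RIP1*, the Rieske iron-sulfur protein of respiratory complex III, at chrV:106799-107852. Its summit was 340 bp ahead of the start codon. Folds were 2.77 and 2.51 for synHPRT1 YAC and 1.83 and 1.81 for synHPRT1 integrated. They were 2.05 and 2.26 for synHPRT1R YAC and 2.04 and 1.84 for synHPRT1R integrated. All 4 YAC values lay above all 4 integrated values, with 179 to 238 fragments at the summit against 139 to 160. With each library centred on its median, the log2 difference was 0.52 with a standard error of 0.0891 (limma, Benjamini-Hochberg adjusted p = 0.0156). Without centring, as the folds above stand, it was 0.35 (limma adjusted p = 0.0372). The call was lost without synHPRT1 YAC replicate 2 (log2 0.51, limma adjusted p = 0.0928), synHPRT1 integrated replicate 1 (0.46, adjusted p = 0.120) or synHPRT1 integrated replicate 2 (0.49, adjusted p = 0.104).

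Few member regions were called in 1 context alone. In all 4 YAC libraries and with no peak of any kind in integrated libraries were 2 of 940 (0.213%), beside 0.168% of all 4159 regions. In all 4 integrated libraries and in no YAC library were 4 of 940 (0.426%), beside 0.337% of all regions. Among peaks with −log10 q of at least 10 the counts were 0 for YAC and 6 for integrated, so both YAC calls ended there. No share over all regions was set beside these counts, so they are not a result about members. Without centring, the median log2 fold difference of YAC minus integrated was −0.17 over all regions. Whether that bears on the counts was not tested. Absence from a list says that no peak was called, not that the mark was absent.

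The 2 YAC regions were at *CYC1* and *RSC30*. The *CYC1* summit lay 250 bp ahead of the cytochrome c gene, with folds of 1.88 and 1.66 for synHPRT1 and 1.68 and 1.85 for synHPRT1R. Its printed window holds an Mbp1 and a TATA match. The *RSC30* region, inside the gene of an RSC subunit, had folds of only 1.25 and 1.48, and 1.59 and 1.39, but 207 to 378 fragments at the summit. It lies 1279 bp from *CUP1-2*, which belongs to a repeated array, so copies could share reads.

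The 4 integrated regions were at *PIR3*, *HSP150*, *IRC8* and *TIR1*. *PIR3*, *HSP150* and *TIR1* encode cell wall proteins. Folds at *HSP150*, 500 bp ahead of the start, were 2.11 and 1.95 for synHPRT1 and 1.93 and 2.02 for synHPRT1R. At *TIR1*, 404 bp ahead, they were 1.85 and 1.85, and 2.17 and 2.01. In *IRC8*, 218 bp before the gene end and 485 bp ahead of *MTR4*, they were 1.81 and 1.95, and 2.15 and 2.09. The region at *PIR3*, chrXI:145824-146210, had 2.81 and 2.84, and 2.02 and 2.22. Its summit lay 686 bp past the end of *PIR3*, between convergent genes. Ahead of *PIR3*, another member region (chrXI:143237-144218) was found in all 8 libraries. That one was not called different between contexts (log2 0.081, limma adjusted p = 0.689). The region called in integrated libraries alone lies in the interval from *PIR3* to YKL162C (chrXI:145379-147629). The study's methods name YKL162C-A as the landing site of the integrated loci, and this interval stands in for it because the annotation used here has no entry of that name. In that interval synHPRT1R YAC replicate 1 had 1 peak and the other YAC libraries had 0. Whether reads from the construct's flank contribute there was not tested.

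**Figure D5:**
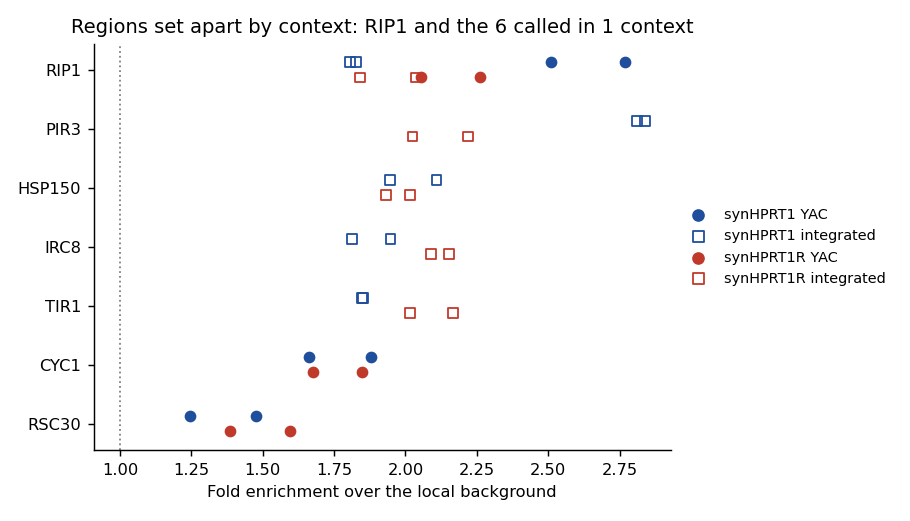
Fold enrichment over the local background in each library (colour, locus; filled circles, YAC; open squares, integrated) at the *RIP1* region and the 6 regions called in 1 context alone; a missing point means no peak was called. At *RIP1* the 4 YAC points (2.05 to 2.77) lie above the 4 integrated points (1.81 to 2.04).

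Sequence around member summits was compared in 300-bp windows, 1 per region, as a description without a test. The Reb1 letters stood in 7.66% of the 940 member windows, 2.52% of the 3219 gene-start windows and 1.86% of 35097 windows tiling the eligible genome. For intergenic members the share was 9.47%, beside 5.20% of tiles of left-over intergenic DNA. Cbf1 letters stood in 7.34% of member windows, 2.98% of gene-start windows and 2.28% of all tiles, and in 8.57% of intergenic members beside 5.04% of left-over intergenic tiles. Mbp1 letters stood in 4.57%, 1.77% and 1.62%, and in 4.51% of intergenic members beside 3.64% of left-over intergenic tiles. At gene ends Mbp1 letters stood in 7.07% of members beside 2.04% of left-over gene-end tiles. Gcn4 letters stood in 3.09%, 2.95% and 2.64%, and in 3.76% of intergenic members beside 2.58% of left-over intergenic tiles.

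TATA letters stood in 25.3% of member, 23.2% of gene-start and 28.0% of all windows. A run of 10 A stood in 9.36%, 4.01% and 5.07%. Among intergenic members it stood in 11.0%, beside 17.2% of tiles of left-over intergenic DNA. In gene bodies Reb1 letters stood in 2 of 91 member windows (2.20%), beside 0.712% of tiles of left-over gene bodies. TATA letters stood in 28.6% of gene-body members, beside 21.1% of their tiles. The order was the opposite in the other classes, with 29.3% of gene-end members beside 42.6% of left-over gene-end tiles and 23.8% of intergenic members beside 36.0% of left-over intergenic tiles. Median GC content was 41.3% at members, 40.3% at gene-start summits and 38.3% over all tiles. An annotated replication origin lay within 150 bp of 2.86% of intergenic member summits, beside 5.94% of tiles of left-over intergenic DNA, and a centromere of 0%, beside 0.614%.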

How the data were processed

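The deposited lists hold H3K4me3 CUT&RUN peaks of 8 yeast libraries, 4 groups of 2. As the labels and the study's methods state, the authors trimmed reads (Trimmomatic), aligned them (Bowtie2 2.2.9) to sacCer3 with the synthetic locus added, and called peaks in each library on its own (MACS2 2.1.0, duplicates kept, no control). The fold enrichment that the authors deposited is a ratio of pile-up to local background. The authors also deposited −log10 p-values and q-values and an integer score, which was not used for tests. Without a control, any stretch rich in fragments can be called. For synHPRT1 YAC replicate 2 the labels disagree on the locus, and its title and genotype were followed.

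Peaks were classed by summit with the RefSeq annotation of the same build (6002 protein-coding genes). Fragments at summits were solved from the deposited fold and −log10 p, and peaks with a misfit over 0.02 (2 to 10 per library) were left blank. The lowest −log10 q per list was 1.38 to 1.66. Shares were compared with exact permutation tests (70 exchanges) and ratios within libraries with exact sign-flip tests (256 patterns), both two-sided. Regions were tested with limma 3.58.1 on log2 fold enrichment, centred per library, with locus and context as terms and Benjamini-Hochberg adjustment over all regions of both kinds. The fit was tested on simulated data of 2191 regions with independent noise, unlike libraries that depart as a whole. It recovered 96 of 100 regions changed by 0.5 on the log2 scale and 100 of 100 changed by 1.0. It also called 14 unchanged regions. Alternatives were a stricter list (−log10 q of at least 10), start windows of 500 bp upstream to 1000 bp downstream and of 200 bp upstream to 500 bp downstream, the peak middle, a gene end of 100 bp, each library left out, the replicate number as a block, other scales, and, chosen after seeing the data, leaving out Ty elements. Named regions were the 6 per class found in all 8 libraries with the highest median −log10 q, up to 5 per direction that separated contexts or passed limma, and regions at the listed genes; others are said to be chosen later. Members and lists were chosen with earlier results of these data known. One of the named intergenic regions is not reported here.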

Additional observations from a re-analysis of the deposited data

Results flagged for a closer look

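In groups of 4 libraries a library far from the other 3 was looked for in 54 sets of values, of which about 2.7 would be marked by chance. The fold at the Ty3 gene YIL082W-A was 1.75 in synHPRT1R YAC replicate 1, beside 2.34 or more in the other YAC libraries. At *TRM5* the same library had 1.61, beside 2.27 or more. The log2 ratio of median fold, members over gene-start peaks, was −0.10 in synHPRT1 integrated replicate 2, beside −0.16 or lower in the other integrated libraries. Outside the members, at least 67 peaks per library lay away from gene starts but within the zones the filters leave out, 29 to 48 of them near chromosome ends and 38 to 45 near the listed features.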

How the results depend on the processing

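The lower density in gene bodies, the higher density at gene ends and the lower fold of members kept their direction and their side of the threshold under every alternative run for them. Each alternative still chose members by position, so neither density result can separate class from distance to starts. With 1 library left out, the mean log2 ratio was −5.56 to −5.42 for gene body over intergenic, 2.62 to 2.70 for gene end over gene body, and −0.14 to −0.13 for fold. For width the log2 ratio was 0.20 with −log10 q of at least 10 and −0.57 (exact p = 0.00781) with the window of 500 bp upstream to 1000 bp downstream, and −0.17 to −0.11 with 1 library left out. The share of YAC minus integrated was −0.219 points (exact p = 0.857) with the window of 200 bp upstream to 500 bp downstream, −0.423 with that of 500 bp upstream to 1000 bp downstream, and −1.18 to −0.457 points with 1 library left out. The share of synHPRT1R minus synHPRT1 was 0.411 points with the narrower window, −0.305 points with −log10 q of at least 10, −0.0842 by peak middle, −0.00196 without Ty elements, and −0.425 to 0.502 with 1 library left out. With the replicate block (4 pairs, smallest exact p 0.125) the shares differed by −0.792 points (p = 0.5) and 0.0297 points (p = 1.0). No pairing by replicate number was seen over regions, where deviations of same-numbered libraries correlated at −0.19 to 0.05. Each library was first centred on its median, so a shift of whole libraries could not be seen this way. With the replicate number as a covariate limma called 1 member between contexts and 0 between loci. The count of members differing between contexts (1) was 20 without centring, 0 on log2 of −log10 q, 0 with −log10 q of at least 10, 0 with the window of 500 bp upstream to 1000 bp downstream, 0 by peak middle, and 0 to 2 with 1 library left out: 2 without synHPRT1 YAC replicate 1, and 0 without synHPRT1 YAC replicate 2 or either synHPRT1 integrated library. In that wide window and by peak middle the *RIP1* region counts as a gene start and was still called. Its log2 difference was 0.52 in the wide window (limma adjusted p = 0.0165) and 0.69 by peak middle (limma adjusted p = 5.89e-05). The *RIP1* difference on log2 of −log10 q was 1.71 (limma adjusted p = 0.117), and 0.44 to 0.60 on log2 fold with 1 library left out. Member regions of 1 context alone (6) were 2 with the wide window, 16 when 1 library of the other context may have a peak, and 7 to 11 with 1 library left out, which eases the requirement: 10 without synHPRT1 YAC replicate 2 or synHPRT1 integrated replicate 2 and 11 without synHPRT1R YAC replicate 2. Members are called peaks, so weak ones can be missed, and a missing call does not show absence. The shortest list, 3139 eligible peaks in synHPRT1R YAC replicate 1, had the highest implied background, 98.9 fragments per base. The longest, 3667 in synHPRT1 YAC replicate 1, had 85.4. The reason for the short list was not tested.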
